A study of Mus musculus with 5 samples.

Results

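The miR-322, miR-503, miR-351, miR-542 and miR-450 cluster was measured with 1-colour Agilent mouse miRNA arrays in dendritic cells (BMDCs) grown from mouse bone marrow. Its members were all mouse miRNAs on the array that carry one of these names, whatever their arm, which gave 13 of the 1122 mouse miRNAs. They are the 5p and 3p arms of miR-322, miR-503, miR-351, miR-542 and miR-450b, the 5p arm of miR-450a, and miR-450a-1-3p and miR-450a-2-3p. The BMDCs came from bone marrow of young C3H/HeJ mice, female or male, a strain whose TLR4 is defective, and were grown with GM-CSF and IL-4 and sorted for CD11c on magnetic beads. After sorting, the cells of 3 samples were stimulated with flagellin at 100 ng/ml for 24 h, and the cells of 2 samples were kept in medium alone for 24 h. Flagellin, the protein of bacterial flagella, is the ligand of TLR5. Nothing in the labels says that the samples of a group came from separate mice or cultures, so p-values measure only the spread between these samples, which may be technical. All arrays were on 1 slide, where flagellin replicates 1 and 2 lay in array column 2, flagellin replicate 3 in column 3 and both medium replicates in column 4, so that an effect of array column and of treatment cannot be told apart.

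In the mouse genome the members lie close together on the X chromosome and are read from one strand. Each hairpin precursor can give a mature miRNA from its 5p and from its 3p arm, and usually one of these strands is loaded into an Argonaute protein while the other is degraded. A mature miRNA finds its target mRNAs mainly through the seed, bases 2 to 8 from its 5′ end. miR-322 is the mouse counterpart of human miR-424, which is known for its rise during monocyte differentiation, and miR-322 and miR-503 are known to lower cell-cycle regulators such as cyclins and Cdc25a. miR-351 carries the seed of the miR-125 family, and miR-542-3p is known to lower survivin, an inhibitor of apoptosis.

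The mature sequences are shown because they tell which members share a seed and therefore could share targets. They are those of RefSeq (GRCm38.p6), where all 13 members were matched by name, and the seed is in capitals.
miR-322-5p: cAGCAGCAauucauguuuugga
miR-16-5p: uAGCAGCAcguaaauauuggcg
miR-503-5p: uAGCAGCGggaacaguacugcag
miR-351-5p: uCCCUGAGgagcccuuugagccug
miR-125b-5p: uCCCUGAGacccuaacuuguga
miR-542-3p: uGUGACAGauugauaacugaaa
miR-450a-5p: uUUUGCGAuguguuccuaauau
miR-450b-5p: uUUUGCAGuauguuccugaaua
miR-450a-2-3p: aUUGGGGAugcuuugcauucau
miR-450a-1-3p: aUUGGGAAcauuuugcauaaau
miR-450b-3p: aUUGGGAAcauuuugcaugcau

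miR-322-5p had the same seed as miR-16-5p and miR-15a-5p, and miR-503-5p shared 6 bases from base 2 on with miR-322-5p and with miR-16-5p but not the base that ends the seed. miR-351-5p had the seed of miR-125a-5p and miR-125b-5p. Within the cluster, the only pair with one seed was miR-450a-1-3p and miR-450b-3p, which were identical at 20 of 22 positions. miR-450a-5p and miR-450b-5p were identical at 15 of 22 positions and shared 5 bases from base 2 on. miR-450a-5p is made by both the Mir450-1 and the Mir450-2 hairpin, so its signal cannot be assigned to either gene.

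In GRCm38.p6 the mature sequences of the cluster span 6320 nt on the minus strand, from chrX:53048008 to chrX:53054327. miR-322-5p lies at chrX:53054306-53054327, miR-503-5p at chrX:53054027-53054049, miR-351-5p at chrX:53053315-53053338, miR-542-3p at chrX:53049415-53049436 and miR-450b-5p at chrX:53048044-53048065. The copies of miR-450a-5p lie at chrX:53048206-53048227 and at chrX:53048339-53048360. RefSeq places the hairpins of miR-322, miR-503 and miR-351 within the gene C430049B03Rik and those of miR-542 and miR-450 outside it, with Hprt as the next gene on the other side of Mir450b. The array files give the positions that the probes read in an older build, mm9 by their header, and these positions were not converted.

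**Figure D1:**
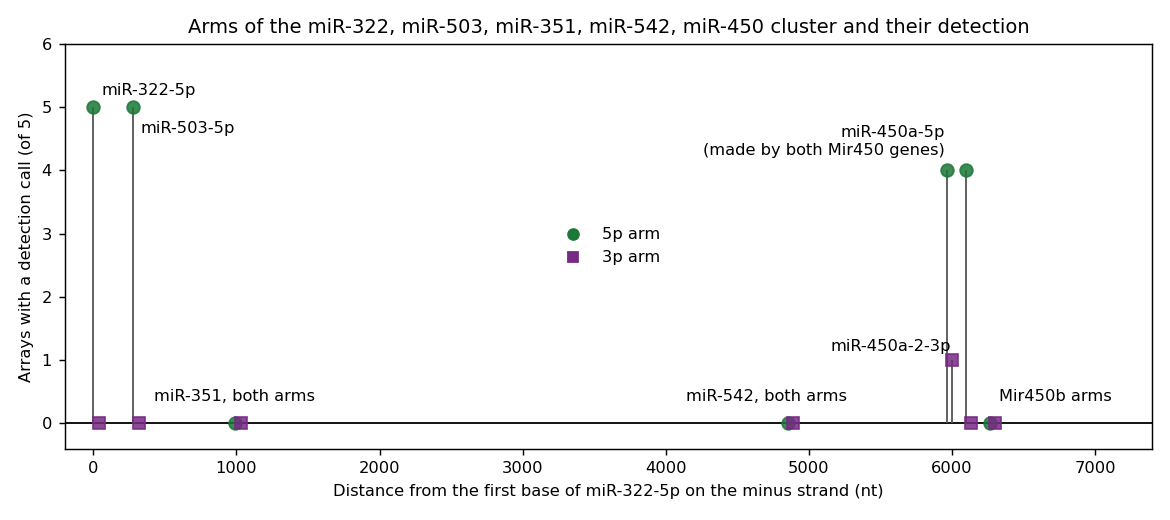
Position of each mature arm on the minus strand of the X chromosome (x axis, distance in nt from the first base of miR-322-5p) against the number of the 5 arrays on which it was called detected (y axis), with circles for 5p and squares for 3p arms. miR-322-5p and miR-503-5p at one end were detected on 5 arrays, miR-450a-5p at the other end on 4 and miR-450a-2-3p on 1, and the arms of miR-351 and miR-542 between them on 0.

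The scanner software gives each miRNA a total gene signal, which is the sum of those of its probes whose signal is above 3 times its error. A miRNA without such a probe is called not detected and listed at 0.1. For the members, the deposited total gene signals followed this rule in 65 of 65 cases of a member on an array (relative tolerance 0.001). Between 292 and 317 mouse miRNAs were detected per array. For scaling, each array's total gene signals were divided by its 75th percentile, 210.6 to 293, taken over the 277 mouse miRNAs that every array detected. Scaled values under the floor, -6.37 as log2, were set to it, and the 307 miRNAs detected on at least 2 arrays were compared by limma. The number of arrays limits the precision of every comparison.

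The share of the cluster's arms detected in BMDCs was close to that of all miRNAs on the array. Of the 13 members, 2 were detected on all 5 arrays, 2 on some and 9 on none, that is 30.8% on at least 1 array, against 29.3% of all 1122 mouse miRNAs. By arm, 3 of 6 5p arms and 1 of 7 3p arms were detected on at least 1 array. The same split was not made over all mouse miRNAs, so it is not known whether it is particular to the cluster. At the level of single probes, 7 of the 40 probes of the cluster were above 3 errors on at least 1 array, and 3 of them on all 5. These were both probes of miR-322-5p and the longer probe of miR-503-5p. Detection is a matter of each probe's own signal and error, so these counts do not order the members by abundance.

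**Figure D2:**
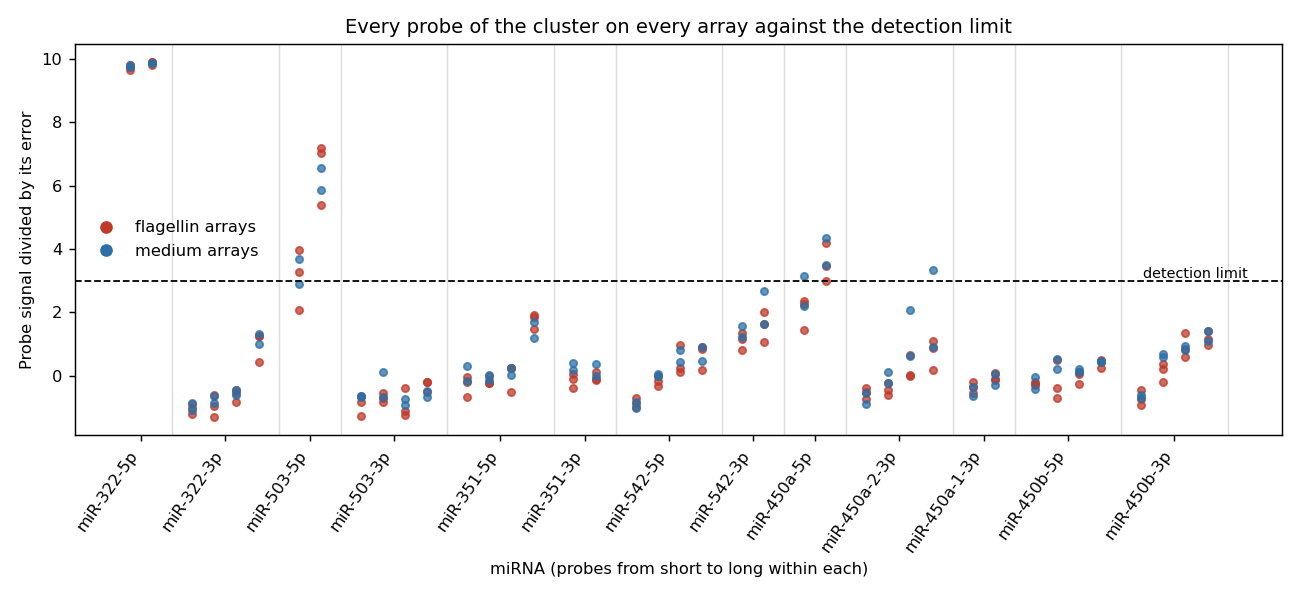
Signal divided by its error (y axis) for every probe of the cluster on every array, grouped by miRNA with probes from short to long (x axis), in red for flagellin and blue for medium arrays, and the detection limit of 3 errors as a dashed line. Only probes of miR-322-5p, miR-503-5p, miR-450a-5p and, on 1 medium array, miR-450a-2-3p lie above the line.

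The probes closest to these calls are shown because the shorter and the longer probe of a miRNA differ by a single base at the 3′ end, in capitals, and for miR-503-5p and miR-450a-5p the shorter one failed on arrays where the longer one passed. Probes are DNA and read the miRNA as its reverse complement.
miR-322-5p, shorter: tccaaaacatgaattgctgct
miR-322-5p, longer: tccaaaacatgaattgctgctG
miR-503-5p, shorter: ctgcagtactgttcc
miR-503-5p, longer: ctgcagtactgttccC
miR-450a-5p, shorter: atattaggaacacatcgca
miR-450a-5p, longer: atattaggaacacatcgcaA
miR-450a-2-3p, longer: atgaatgcaaagcatccccA
miR-542-3p, longer: tttcagttatcaatctgtcacA

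The longer probe of miR-322-5p reads bases 1 to 22, the whole miRNA. That of miR-503-5p reads bases 8 to 23 and so touches the seed with 1 base only. That of miR-450a-5p reads bases 3 to 22. Among the other 254 detected miRNAs with a RefSeq sequence, the longest stretch shared with what the probe reads was 8 nt for miR-322-5p (in miR-497-5p), 9 nt for miR-503-5p (in miR-101a-3p, miR-101b-3p and miR-101c) and 10 nt for miR-450a-5p (in miR-1198-5p). Position by position, miR-15a-5p was identical to miR-322-5p at 15 of 22 bases, with signals of 1138 to 1914 against 144 to 245. Binding of relatives to these probes was not tested.

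miR-322-5p was detected on all arrays and was the member measured with the smallest relative error. Its total gene signal was 243 ± 17.7 on flagellin replicate 1, 245 ± 17.9 on replicate 2 and 144 ± 10.6 on replicate 3, and 210.5 ± 15.4 and 190 ± 13.9 on medium replicates 1 and 2, each with the error that the scanner software gives. The medium values lay between those of flagellin replicate 3, the lowest, and flagellin replicates 1 and 2, so the groups overlapped. Scaled to the arrays' 75th percentiles, its log2 levels on the flagellin arrays were -0.21, -0.26 and -0.55, and those on the medium arrays -0.42 and -0.37, with flagellin replicate 3 again lowest and the medium arrays between. The mean of the flagellin arrays was -0.34 ± 0.18 (SD, n = 3) and that of the medium arrays -0.40 ± 0.037 (SD, n = 2). Flagellin minus medium was 0.055 on the log2 scale (standard error 0.13, 95% interval -0.29 to 0.40), and limma's adjusted p was 0.928. In linear terms the interval runs from 0.820 to 1.32 times the medium level, so a change of 2-fold in either direction lies outside it. Both of its probes gave the same picture, with log2 differences of 0.044 for the shorter and 0.063 for the longer, each with p = 0.8 in the two-sided exact permutation test over the 10 splits of 3 arrays against 2, whose smallest possible p is 0.1.

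**Figure D3:**
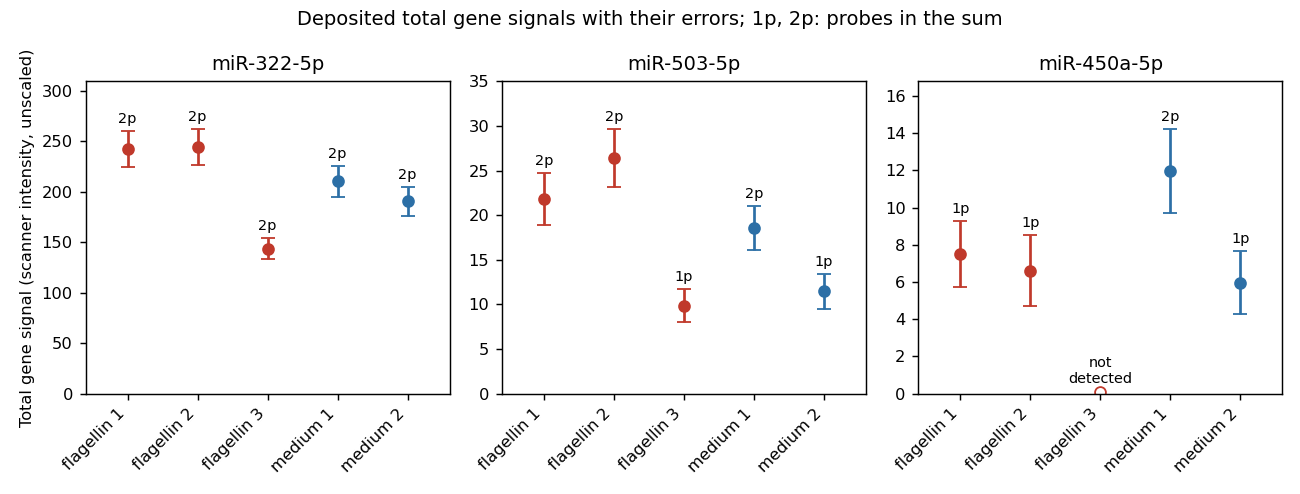
Deposited total gene signal (y axis, scanner intensity before scaling) of miR-322-5p, miR-503-5p and miR-450a-5p on each array (x axis), flagellin in red and medium in blue, with the scanner software's error as bars and the number of probes in the sum above each point (1p, 2p). miR-503-5p and miR-450a-5p are higher where 2 probes enter the sum than where 1 does, and miR-450a-5p was not detected on flagellin replicate 3.

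miR-503-5p, the near relative of miR-322-5p by seed, was also detected on all arrays, but its signal depended on how many probes passed. Its total gene signal was 21.8 ± 2.88, 26.4 ± 3.25 and 9.86 ± 1.82 on flagellin replicates 1, 2 and 3, and 18.6 ± 2.51 and 11.5 ± 1.96 on medium replicates 1 and 2. Flagellin replicate 3 and medium replicate 2 were low together, and on both of them the shorter probe fell under 3 errors and was left out of the sum, while on the other 3 arrays both probes were summed. Its scaled log2 levels were -3.69, -3.47 and -4.42 with flagellin, mean -3.86 ± 0.50 (SD, n = 3), against -3.93 and -4.42 with medium, mean -4.18 ± 0.35 (SD, n = 2). The groups overlapped, with both of them reaching down to the same level. The log2 difference was 0.32 (standard error 0.34, 95% interval -0.59 to 1.22), and limma's adjusted p was 0.859.

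With both probes summed on every array, whether or not they passed, the medium arrays no longer differed for miR-503-5p. Its scaled log2 levels on the flagellin arrays were then -3.69, -3.47 and -4.00, and those on the medium arrays -3.93 and -3.92, so that flagellin replicate 3 was lowest and flagellin replicates 1 and 2 highest, as for miR-322-5p. The SD between medium arrays fell from 0.35 to 0.0053, and the log2 difference between the groups from 0.32 to 0.20. The longer probe alone, which passed on every array, had signals of 16.2, 18.7 and 9.86 with flagellin and 12.7 and 11.5 with medium. Scaled, its 3 flagellin values of -4.12, -3.97 and -4.42 lay above the medium values of -4.47 and -4.42, the lowest flagellin value by less than 0.01. By scaled total gene signals, all flagellin values lay above both medium values for 11.4% of the 307 miRNAs. The log2 difference of this probe was 0.28, with p = 0.2 in the two-sided exact permutation test. Over the 3 probes tested in this way, no p was below 0.2.

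**Figure D4:**
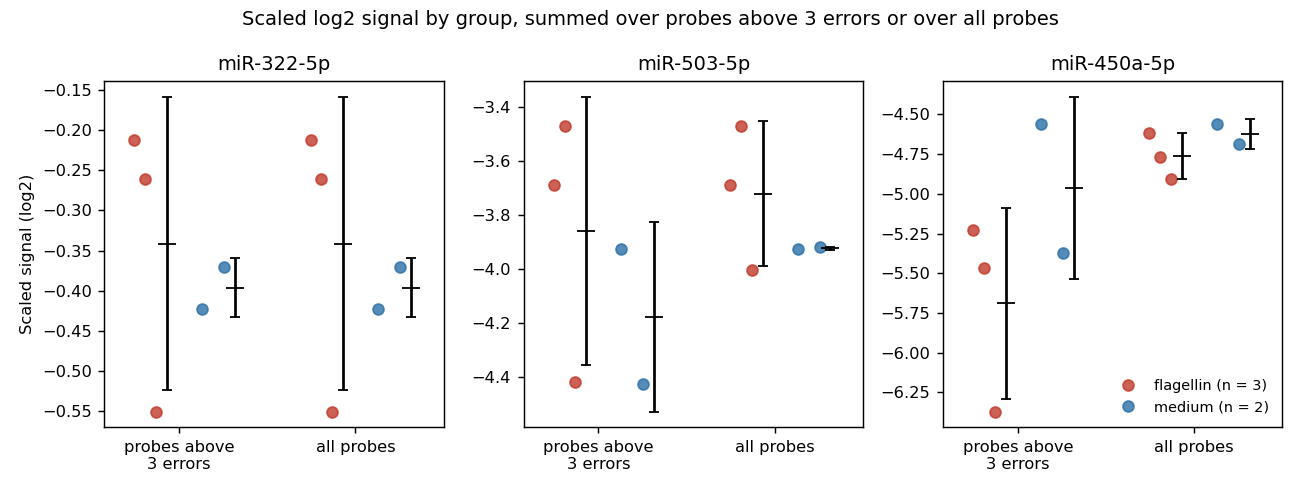
Scaled log2 signal (y axis) of the 3 detected 5p arms by group, flagellin in red (n = 3) and medium in blue (n = 2), with the mean and SD in black, once with probes above 3 errors summed and once with all probes summed. The medium arrays of miR-503-5p and all arrays of miR-450a-5p draw together when all probes are summed, and the groups overlap for each miRNA under both sums.

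miR-450a-5p, from the other end of the cluster, lay at the detection limit. Its total gene signal was 7.50 ± 1.79 and 6.61 ± 1.91 on flagellin replicates 1 and 2, and 12.0 ± 2.25 and 5.95 ± 1.70 on medium replicates 1 and 2, and it was not detected on flagellin replicate 3. On that array its longer probe had a signal of 4.82 with an error of 1.61, just under the limit of 3 errors. Medium replicate 1 was the only array on which both probes passed. In the fit, where flagellin replicate 3 stood at the common floor, its scaled log2 levels were -5.23, -5.47 and -6.37 with flagellin, mean -5.69 ± 0.60 (SD, n = 3), against -4.56 and -5.37 with medium, mean -4.96 ± 0.57 (SD, n = 2). Medium replicate 1 was highest, and medium replicate 2 lay between flagellin replicates 1 and 2. The log2 difference was -0.73 (standard error 0.44, 95% interval -1.90 to 0.45), and limma's adjusted p was 0.859.

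Most of this difference was lost when the probes were summed without regard to passing. The longer probe of miR-450a-5p had signals of 7.50, 6.61 and 4.82 with flagellin and 7.10 and 5.95 with medium, and the shorter probe 3.96, 4.14 and 2.21 on the flagellin arrays, 4.89 and 3.60 on the medium arrays. Before scaling, flagellin replicate 3 was lowest for both probes, and the groups overlapped. These signals are not on one scale, since that array also had the lowest 75th percentile, 210.6. With scaled processed probe signals the groups of miR-450a-5p did not overlap, as for 20.2% of the 307 miRNAs. With both probes summed on every array, the scaled log2 mean of the flagellin arrays was -4.76 ± 0.14 (SD, n = 3), that of the medium arrays -4.62 ± 0.092 (SD, n = 2), and the difference -0.14. In the values the authors deposited, where an undetected miRNA keeps its 0.1, the same difference was -2.28, and limma's adjusted p was 0.817.

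miR-450a-2-3p, the opposite arm of one miR-450a hairpin, was detected on medium replicate 1 only. There its longest probe had a signal of 2.60 with an error of 0.782, and the total gene signal of 2.60 was below the common floor after scaling. On the other arrays this probe gave 0.900, 0.782 and 0.133 with flagellin and 0.732 with medium replicate 2, all within 2 errors of 0. It was detected on fewer than 2 arrays and not tested.

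The arms of miR-542 stayed under the limit on every array, although miR-542-3p came near it. The longer probe of miR-542-3p had signals of 3.36, 2.95 and 1.64 with flagellin and 4.07 and 2.64 with medium, which was at most 2.67 times its error. Before scaling, the flagellin arrays had a mean of 2.65 ± 0.899 (SD, n = 3), the medium arrays one of 3.35 ± 1.01 (SD, n = 2), and the groups overlapped. Detection of this probe would have needed a signal of 4.57 to 5.45, so lower levels of miR-542-3p were not detectable here. For miR-542-5p no probe exceeded 0.983 times its error.

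miR-351-5p, the member with the miR-125 seed, was not detected on any array. Its longest probe had signals of 1.53, 1.34 and 1.50 with flagellin and 1.25 and 0.947 with medium, at most 1.92 times its error. All 3 flagellin signals of this probe were above both medium signals before scaling, but each of them was below the detection limit of 2.23 to 2.71. By unscaled total gene signals, the groups did not overlap, in either direction, for 10.4% of the 307 miRNAs tested. The other 3 probes of miR-351-5p did not exceed 0.310 times their error, and those of miR-351-3p 0.407 times. miR-450b-5p reached 0.536 and miR-450b-3p 1.42 times the error, and miR-450a-1-3p 0.0890 times. The opposite arms of the detected members were also at background, with at most 1.31 times the error for miR-322-3p and 0.112 times for miR-503-3p. The probes of miR-322-3p are 11 to 14 nt long, and those of miR-322-5p are 21 and 22 nt long. The probes of miR-503-3p are 10 to 13 nt long, and those of miR-503-5p are 15 and 16 nt long. Detection was therefore not measured alike for both arms of these hairpins.

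Across the cluster, 3 members entered the comparison of flagellin with medium. limma's test gave an adjusted p under 0.05 for 0 of the 3, as for 0.651% of the 307 miRNAs tested, and an unadjusted p under 0.05 for 0 of the 3, as for 5.86% of the 307. None of the 3 had flagellin and medium values that did not overlap, where 20.2% of the 307 did, 11.4% with flagellin higher and 8.79% with flagellin lower. The median log2 difference of the 3 members was 0.055, and that of all 307 miRNAs was 0.0095. The 95% intervals of all 3 members included 0, so no direction was established for any of them. Without flagellin replicate 3, the groups of miR-322-5p and miR-503-5p no longer overlapped, as those of 55% of the 307 miRNAs did not in that set of arrays. The groups of miR-450a-5p did not overlap without flagellin replicate 1 or without medium replicate 2, where the share of the 307 was 26.4% and 41%, nor did those of miR-503-5p without medium replicate 1, where it was 30.6%.

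The largest spread of the cluster was between flagellin arrays rather than between groups. Flagellin replicate 3 minus the mean of flagellin replicates 1 and 2 was -0.31 on the log2 scale for miR-322-5p and -0.84 for miR-503-5p, where the median of the 277 scaling miRNAs was 0.064. Among these 277, 27 had a lower value than miR-322-5p and 3 a lower value than miR-503-5p. The value of miR-503-5p includes the lost shorter probe. Probe length moved with this spread over all miRNAs. The median of the same quantity was 0.22 for the 69 miRNAs whose probes average at most 14 nt, 0.056 for the 129 above that and up to 18 nt, and -0.14 for the 79 with longer probes. The mean probe length is 21.5 nt for miR-322-5p and 15.5 nt for miR-503-5p. The part of probe length in the members' values was not tested. Without flagellin replicate 3, flagellin minus medium was 0.16 on the log2 scale for miR-322-5p and 0.60 for miR-503-5p, with limma's unadjusted p at 0.0523 and 0.0661, and 71 of the 307 miRNAs had an unadjusted p under 0.05 in that fit. limma's adjusted p there was 0.211 for miR-322-5p and 0.242 for miR-503-5p.

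The miRNAs whose variation over the 5 arrays was most like that of miR-322-5p and miR-503-5p were found by distance. This was the root mean square distance of their centred log2 values from the mean of these 2 members. The nearest were miR-340-5p at 0.062, miR-19a-3p at 0.085, miR-362-3p at 0.087, miR-101a-3p at 0.091 and miR-148b-3p at 0.096, where the median of the 275 candidates was 0.29. All 5 were highest on flagellin replicate 1 or 2 and lowest on flagellin replicate 3, except miR-19a-3p, which was lowest on medium replicate 2. This follows from choosing them by that profile. Their mean probe lengths were 18.5 to 20.5 nt. The distance between miR-322-5p and miR-503-5p themselves was 0.30. It was taken from one to the other and not from their mean, so it is not comparable with the candidates' distances. These 2 members parted most on flagellin replicate 2, where miR-503-5p was the higher one relative to its mean, and on medium replicate 2, where it was the lower one and had lost its shorter probe.

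**Figure D5:**
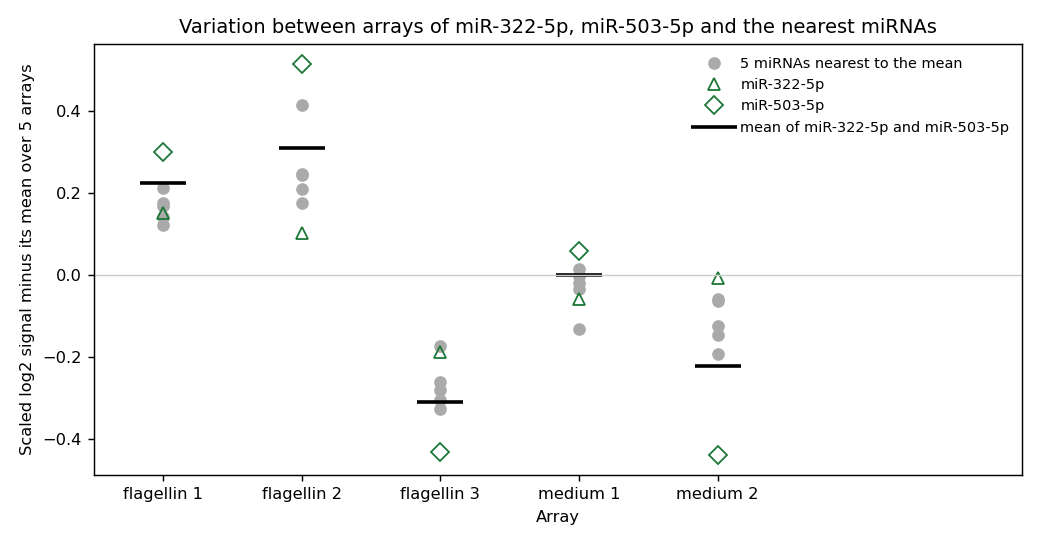
Scaled log2 signal minus its mean over the 5 arrays (y axis) on each array (x axis) for miR-322-5p (triangles), miR-503-5p (diamonds), their mean (black bars) and the 5 nearest miRNAs (grey). The mean is 0.22 and 0.31 on flagellin replicates 1 and 2 and -0.31 on flagellin replicate 3, and the members part most on medium replicate 2 and flagellin replicate 2.

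Some miRNAs outside the cluster carried a member's seed. Among the 927 of 1122 mouse miRNAs matched to a RefSeq sequence, 7 were such relatives. They were miR-15a-5p, miR-15b-5p, miR-16-5p, miR-195-5p and miR-497-5p with the seed of miR-322-5p, and miR-125a-5p and miR-125b-5p with that of miR-351-5p. The miR-15 and miR-16 family is known to restrain the cell cycle and Bcl2, and miR-125b to restrain TNF. Of the 7, 5 were detected on all arrays, as were 277 of all 1122 mouse miRNAs, and 6 were tested. limma's test gave an unadjusted p under 0.05 for 0 of the 6, where 5.86% of the 307 had one. Their median log2 difference was 0.14, and that of the 307 was 0.0095. miR-16-5p had log2 levels of 4.14, 4.01 and 3.97 with flagellin and 3.90 and 3.89 with medium, a difference of 0.14 (standard error 0.085), with limma's adjusted p at 0.859. miR-15a-5p differed by 0.14 and miR-15b-5p by 0.15. miR-125b-5p had levels of -1.57, -1.21 and -1.54 with flagellin and -1.60 and -1.63 with medium, a difference of 0.18 (standard error 0.14) with the same adjusted p. For miR-16-5p and miR-125b-5p, 2 of the 6, the flagellin values lay above both medium values, as for 11.4% of the 307 miRNAs. For miR-15a-5p, miR-15b-5p, miR-195-5p and miR-125a-5p the groups overlapped.

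Markers of the labelled cells and of other cells give the setting of these values. All 6 miRNAs listed for myeloid and haematopoietic cells were detected on all 5 arrays, among them miR-223-3p and miR-142-3p, and their summed scaled signal was 124 to 143 times the 75th percentile with flagellin and 130.4 to 132 times with medium. Most of this sum was miR-21-5p, at log2 levels of 6.68 to 6.90 with flagellin and 6.76 and 6.75 with medium. The next highest, miR-223-3p, was at 3.53 to 3.62 with flagellin and 3.47 and 3.49 with medium. miR-155-5p and miR-146a-5p, which TLR signaling is known to induce, differed by 0.35 and 0.28 on the log2 scale, where limma's unadjusted p was 0.0161 and 0.0241 and its adjusted p 0.65 for each. Of 8 miRNAs listed for stromal cells and fibroblasts, 1 was detected on all arrays and 4 on none, with summed scaled signals of 0.0529 to 0.257 with flagellin and 0.0487 to 0.0730 with medium. Of 2 endothelial miRNAs, miR-126-3p was detected on all arrays and miR-126-5p on none, with sums of 0.0266 to 0.0993 and 0.0205 to 0.0444. Of 4 erythroid miRNAs, 3 were on the array and 2 of these, both arms of miR-144, were detected nowhere, while miR-451 was detected on flagellin replicates 1 and 2, with sums of 0 to 0.0579 with flagellin and 0 with medium. Of 3 lymphoid miRNAs, miR-181a-5p and miR-181b-5p were detected on all arrays and miR-150-5p on none. Their sums were 2.32 to 2.65 with flagellin and 2.42 to 2.51 with medium.

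Flagellin replicate 2 held the highest sums of the stromal, endothelial and erythroid lists. It also held the highest miR-503-5p, at -3.47, and was the only array with miR-497-5p. On the same scale miR-322-5p was highest on flagellin replicate 1, at -0.21, and miR-450a-5p on medium replicate 1, at -4.56. Of the myeloid list, miR-142-3p and miR-142-5p were also highest on flagellin replicate 2, at 2.95 and 1.64. The others of that list were highest on flagellin replicate 1. For miR-199a-3p, a stromal miRNA, the signals were 5.58 and 41.3 on flagellin replicates 1 and 2 and 5.59 on medium replicate 1, and it was not detected on the other arrays. miR-10b-5p, the stromal miRNA detected on all arrays, was highest on medium replicate 1, at -4.23 against -4.31 on flagellin replicate 2. Without flagellin replicate 2 the log2 difference of miR-503-5p was 0.12 and that of miR-322-5p 0.015. Other arrays lowered these values further when left out, to 0.068 for miR-503-5p without medium replicate 2 and to -0.0093 for miR-322-5p without flagellin replicate 1. The part of stromal, endothelial and erythroid cells in the values of the cluster was not tested. Fewer cells with a miRNA and less of it per cell cannot be told apart in these samples.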

How the data were processed

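The authors labelled total RNA with Cy3, hybridized it to 1-colour Agilent mouse miRNA arrays and read intensities by the scanner software Feature Extraction, version 10.7.3.1 per the file headers. The deposited intensity files hold, per miRNA, a total gene signal, its error and a detection call, and, per probe and spot, signals and errors. A table of log2 values was deposited too. Each of its columns equals that array's log2 total gene signal less a constant (6.56 to 6.91), with column medians from -10.23 to -9.88, the level of undetected miRNAs, so scale, centring and direction are known. No spot was saturated.

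Total gene signals were scaled to the 75th percentile over miRNAs detected on all 5 arrays, raised to the floor and log2 transformed. limma 3.58.1 (R 4.3.3) fitted flagellin against medium without covariates (3 residual degrees of freedom, empirical Bayes, Benjamini-Hochberg over 307 miRNAs). The fit was also run on simulated data, with changes larger than the members' differences and without a floor or lost probes. That run therefore does not speak to values like those of the members. Single probes were compared by exact permutation of the difference in absolute value. Permutations ran in scipy 1.17.1 under Python 3.11.15. Named miRNAs are the members, the 5 nearest in variation, seed relatives (bases 2 to 8 of RefSeq sequences, matched by name or by the stretch the longest probe reads, for 927 of 1122 miRNAs) and lists of cell type miRNAs from general knowledge. The members and lists were chosen with earlier results of these data known. Alternatives covered scaling, floor, filter, detection rule, level, test, blocks for replicate number and slide position, and leaving out each array. With a single slide, no block for slide was possible.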

Additional observations from a re-analysis of the deposited data

How the results depend on the processing

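Under 21 alternatives with a test, no cluster member reached an adjusted or unadjusted p under 0.05 in any. The log2 difference of miR-503-5p was 0.057 to 0.60 and positive throughout, and that of miR-450a-5p -2.28 to -0.018 and negative throughout, while that of miR-322-5p was -0.011 to 0.24. It reversed to -0.0093 without flagellin replicate 1 and to -0.011 within array row 1, which holds flagellin replicates 1 and 3 and medium replicate 2. Within array row 2, which holds flagellin replicate 2 and medium replicate 1, it was 0.16. The differences of miR-503-5p within rows 1 and 2 were 0.37 and 0.46, and those of miR-450a-5p -0.43 and -0.91. miR-450a-5p was -1.83 with the floor divided by 10 and -1.18 with signals under 1 set to 1, which by construction lower the value of the undetected array, and -0.32 without medium replicate 1.

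With replicate number as a replicate block, the differences were 0.16, 0.60 and -0.39, and no miRNA had an adjusted p under 0.05 (39 unadjusted in limma's test). Only flagellin has a replicate 3, so the block takes up that array, and these differences equal those without it. Deviations from the group means correlated at 0.047 for replicate 1 and 0.0073 for replicate 2. With 2 medium arrays, their deviations mirror each other, so these correlations cannot tell whether a number marks a shared culture. The number of members whose groups do not overlap, 0 in the report, was 1 at the probe level with processed signals, where 20.2% of all 307 miRNAs did not overlap, and 0 to 2 with each array left out, where 26.4% to 55% did not.

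The count of mouse miRNAs with an adjusted p under 0.05, 2 in the report, was 3 at the probe level with processed signals (24 unadjusted) and 4 with the authors' values, with the floor divided by 10 and with signals under 1 set to 1. With the filter at all 5 arrays it was 1, as with no filter, limma's trend option and array column as a random block. limma gave 0, against 14, 8, 17, 17, 24 and 15 at an unadjusted p under 0.05, when scaling used the percentile of all mouse miRNAs, without scaling, after quantile normalization, without the detection rule, at the probe level with normexp and quantile, and with array row as a block. Leaving out single arrays gave 0 to 1 (7 to 71 unadjusted). The methods' t-test gave 14 unadjusted and 2 after Benjamini-Hochberg adjustment. Where 1 medium array was left, its spread was taken from the flagellin arrays. The cause of these changes was not tested where none is given. Signal over background limits the cluster, since 3 of its 40 probes were above 3 errors on every array.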
